A study of Mus musculus with 16 samples.

Results

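A set of 10 genes that encode chains of cytokine receptors was followed in the colon epithelium of the mouse: Il4ra, Il13ra1, Il10rb, Il22ra1, Ifnlr1, Il1r1, Il17ra, Il17rc, Ifngr1 and Ifngr2. They were taken by gene symbol from tables of 45513 genes, and all 10 were present and passed the filter on low counts. The libraries came from 8 mice that carried Atoh1(WT)CreERT2, in which a tamoxifen-inducible Cre recombinase follows the wild-type Atoh1 coding sequence, together with a R26RtdTom reporter. Both Atoh1 alleles carried the Cre, the reporter had 1 active allele, and the animals were C57BL/6 males and females of 8 to 16 weeks. All received tamoxifen, which the labels give as 1 mg per day for 3 days, so no untreated animal enters the comparison. Live EpCAM+ cells of each colon were sorted into tdTom+ cells, which had expressed Atoh1 and so recombined the reporter, and tdTom− cells, which gave 8 libraries of each kind, to compare secretory with absorptive epithelium. The label is set by the Atoh1 locus and is permanent, hence tdTom+ cells include the descendants of Atoh1+ cells, and the tdTom− population is a mixture of the remaining epithelium.

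Epithelial cells read immune signals through paired receptor chains. IL-13 and IL-4 act on non-haematopoietic cells through IL-4Rα and IL-13Rα1 (Il4ra and Il13ra1), which signal by JAK kinases and STAT6 and promote goblet cell mucus and the expulsion of worms. The IL-10Rβ chain (Il10rb) is shared by the receptors for IL-10, IL-22 and the lambda interferons, each of which adds a private chain, here Il22ra1 for IL-22 and Ifnlr1 for interferon lambda. IL-17RA and IL-17RC together bind IL-17A and IL-17F, IL-1R1 binds IL-1 with the accessory chain Il1rap, and IFNGR1 and IFNGR2 form the interferon gamma receptor.

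Total counts per library ran from 16482530 to 24218367 in tdTom+ cells and from 18318172 to 45791503 in tdTom− cells, the largest being the tdTom− library of mouse 4. Values are CPM, counts scaled to the TMM-adjusted size of the library, unless stated. Scaled to total counts without that adjustment, a count of 3 came to 0.124 to 0.182 CPM in tdTom+ libraries and 0.0655 to 0.164 CPM in tdTom− libraries, which covers counting error only. Atoh1 itself stood at 132 ± 19.3 CPM (SD, n = 8) in tdTom+ and 5.70 ± 1.67 CPM in tdTom− cells, with a log2 fold change of 4.54 (SE 0.15, edgeR quasi-likelihood adjusted p = 1.14e-15), so the labels held in every mouse. All 8 goblet markers were higher and all 8 absorptive markers lower in tdTom+ cells, and 7 of 8 enteroendocrine, 5 of 7 tested tuft and 5 of 8 stem and proliferation markers were lower too. The count of stem and proliferation markers was 8 with mouse as a replicate block, 2 without mouse 1, 3 without mouse 6 and 3 without the tdTom− library of mouse 4. In such bulk libraries fewer cells of a type and less RNA per cell cannot be told apart. Markers of cells outside the epithelium were also lower in tdTom+ cells where they could be tested and passed. Of 10 T cell markers 8 failed the filter, among them Cd4 without a count in any library and Cd3e with 9 counts at most. Ptprc, the leukocyte antigen CD45, was lower without overlap at 2.17 ± 0.641 against 6.23 ± 1.91 CPM (log2 fold change -1.52, edgeR adjusted p = 2.28e-06). Itgae, the other tested marker of this list, went the other way and did not pass (log2 fold change 0.305, edgeR adjusted p = 0.372). It was higher in tdTom+ cells of 5 of 8 mice. The summed T cell markers spanned 2.37 to 4.61 CPM in tdTom+ and 4.30 to 11.0 CPM in tdTom− libraries. Of 7 myeloid markers 3 were tested and Cd68 was lower (-0.81, not called in mice 1 to 3 or mice 5 to 8 alone), with sums of 5.54 to 11.7 CPM and 7.31 to 34.3 CPM. Itgam (log2 fold change -0.10) and Lyz2 (-2.11) did not pass. Of 9 stromal and endothelial markers 2 were tested and both were lower, Pecam1 (-1.58) and Pdgfrb (-0.70), with sums of 6.20 to 9.86 CPM in tdTom+ and 11.5 to 18.0 CPM in tdTom− libraries. Of 6 B and plasma cell markers only Sdc1, which epithelial cells express too, was tested, and it was lower (log2 fold change -1.0), with sums of 126 to 155 CPM and 257 to 296 CPM. The 6 receptors that were lower moved in the same direction as the markers of cells outside the epithelium that passed. That direction was shared by 5 of 7 general epithelial markers, led by Krt8 (log2 fold change -1.08) and Cdx2 (-0.65). Krt18 was higher (0.68) and 1 did not pass. The summed epithelial markers spanned 5680 to 6451 CPM in tdTom+ and 8050 to 9895 CPM in tdTom− libraries. The part of these marker lists in the receptor results was not tested.

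The stretches before the start of the 4 receptor chains with the largest changes are printed first, because both type 2 chains moved one way and both interferon gamma chains the other. Each is the 150 bases before the RefSeq start in GRCm38.p6, 5′ to 3′, and capitals mark matches to the GC box GGGCGG and to the STAT6-type motif (TTC and GAA with 4 bases between) on either strand, where neighbouring GC boxes may share a base.
Il4ra, chr7:125552121-125552270 (+ strand): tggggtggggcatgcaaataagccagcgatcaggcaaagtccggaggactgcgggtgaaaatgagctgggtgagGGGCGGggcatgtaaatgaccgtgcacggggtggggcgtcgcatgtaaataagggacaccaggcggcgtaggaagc
Il13ra1, chrX:36111958-36112107 (+ strand): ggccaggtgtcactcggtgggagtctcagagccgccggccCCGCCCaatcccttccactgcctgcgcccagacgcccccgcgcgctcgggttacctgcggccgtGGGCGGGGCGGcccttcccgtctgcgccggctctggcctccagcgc
Ifngr1, chr10:19591799-19591948 (+ strand): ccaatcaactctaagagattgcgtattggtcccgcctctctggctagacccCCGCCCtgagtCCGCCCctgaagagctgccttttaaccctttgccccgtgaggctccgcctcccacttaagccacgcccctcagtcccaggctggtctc
Ifngr2, chr16:91546909-91547058 (+ strand): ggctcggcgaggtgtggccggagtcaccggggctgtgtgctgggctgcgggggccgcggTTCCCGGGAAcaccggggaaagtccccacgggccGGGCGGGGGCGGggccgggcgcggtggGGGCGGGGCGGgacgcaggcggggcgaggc
RefSeq held a start for 8 of the 10 genes, with a pair of starts for Il1r1, which gave 9 windows of 250 bases, and none for Il10rb or Il17ra. A GC box lay in 7 of the 9 windows, against 32.7% of 32851 windows over all genes. Il13ra1 had 3 matches, Ifngr1 had 2, Ifngr2 had 4 and Il4ra had 1. The E-box CAGCTG, of the kind bound by ATOH1 and related factors, was found in 3 of the 9 windows (Il4ra, Il22ra1 and Il17rc), against 13.0% of all windows, and the E-box CAGATG in 1 window of Il1r1, against 14.4%. The STAT6-type motif was in the window of Ifngr2 alone (5.85% of all windows), and the interferon-type motif TTCNNNGAA in none of the 9 (7.02% of all). These are matches of letters and carry no evidence of binding. The genes with GC boxes included members that were higher and members that were lower in tdTom+ cells.

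Between the populations, 3 receptors were higher in tdTom+ cells (Il13ra1, Il4ra and Il1r1), 6 were lower (Ifngr1, Ifngr2, Il17rc, Il22ra1, Ifnlr1 and Il17ra) and Il10rb did not pass the test at an adjusted p of 0.01. Of all 15841 genes tested, 25.5% were higher and 25.5% lower by the same rule. These shares are the background for each count of called genes in a list. In CPM, all tdTom+ libraries lay above all tdTom− libraries for 2 receptors (15.2% of all genes tested) and below them for 5 (15.3% of all genes). Overlap changed with the scale for some receptors. In TPM the groups overlapped for Il17ra (tdTom+ up to 11.1, tdTom− from 10.6) and Ifnlr1 (up to 6.21, from 5.76). For Il22ra1, which overlapped in CPM, they were separate in TPM (up to 18.2, from 18.9). The median log2 fold change of the 10 was -0.41, against 0.0039 over all genes, and the median of its absolute value was 0.64 against 0.33.

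**Figure D1:**
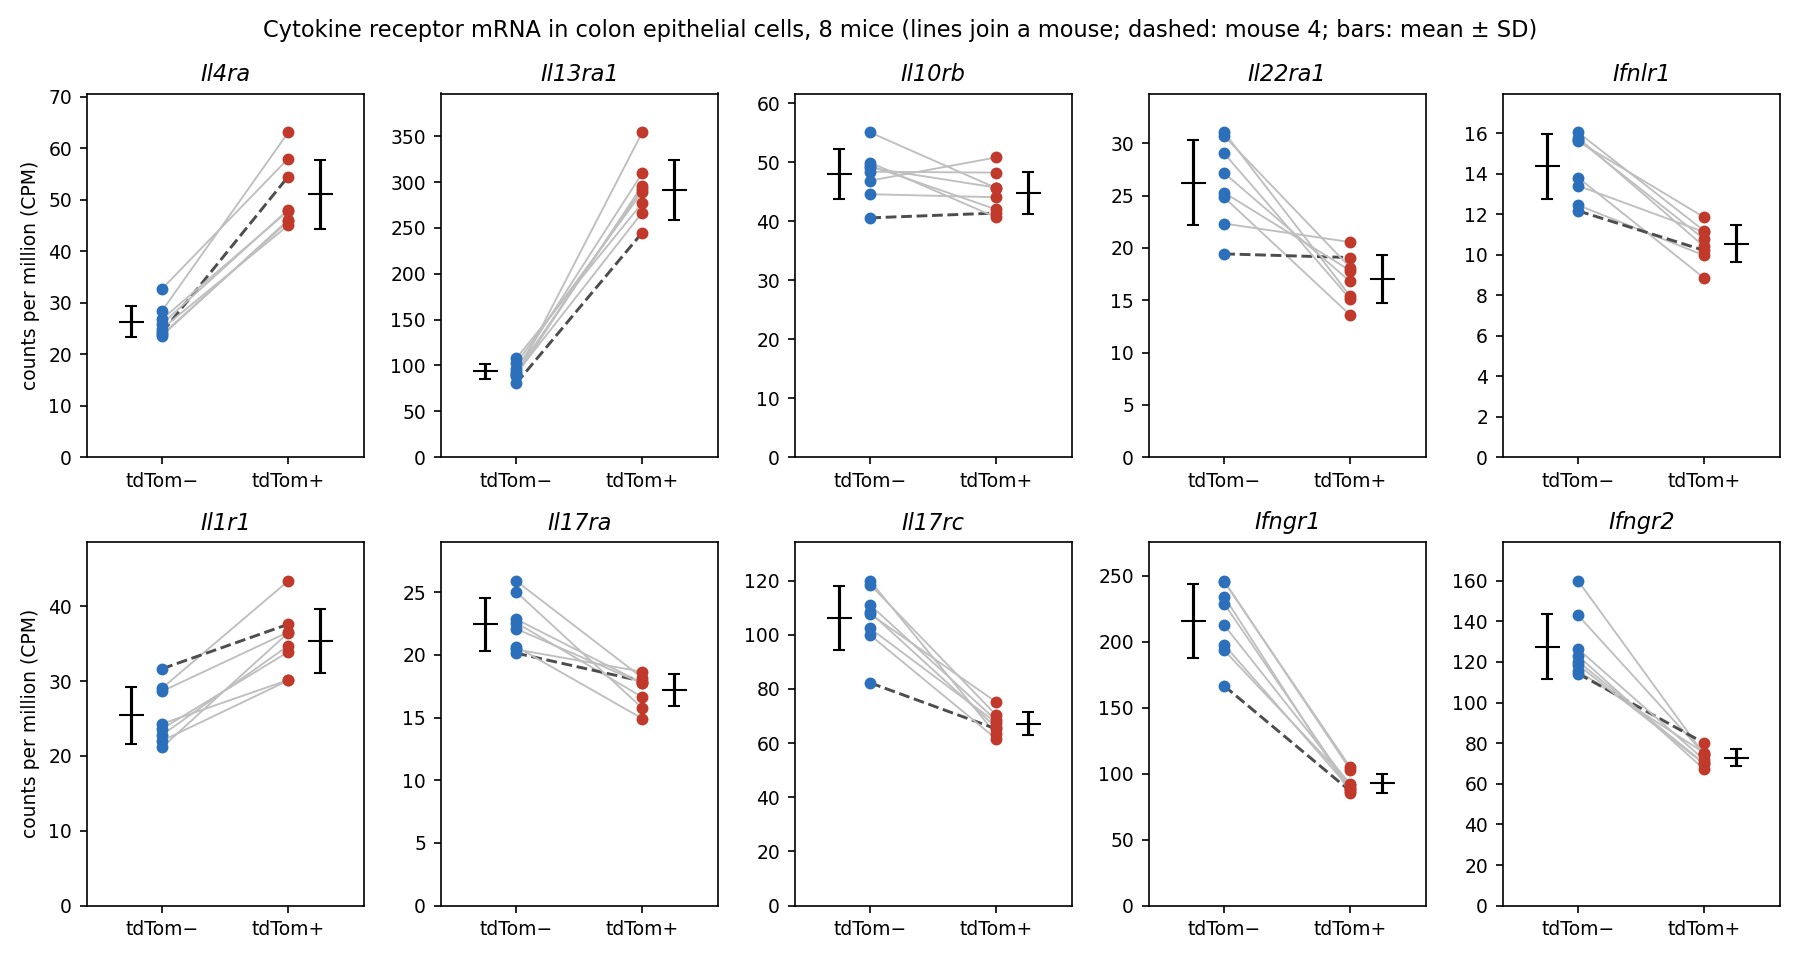
Level of each receptor mRNA, in CPM on axes from 0, in tdTom− (blue) and tdTom+ (red) cells of 8 mice; lines join the libraries of a mouse, the dashed line is mouse 4, and bars give the mean ± SD. Il4ra and Il13ra1 rise without overlap, Ifngr1 and Ifngr2 fall without overlap, and Il10rb stays within 40.6 to 55.0 CPM in both populations.

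The IL-4 and IL-13 receptor chains rose together in tdTom+ cells. Il13ra1, the IL-13-binding chain (ENSMUSG00000017057, GRCm38 chrX:36112110-36171259, + strand), was at 245, 291 and 354 CPM (lowest, median and highest) in tdTom+ libraries and at 80.5, 91.8 and 108 CPM in tdTom− libraries. The lowest tdTom+ library thus exceeded the highest tdTom− library, and no mouse stood apart. The means were 291 ± 32.2 and 93.4 ± 8.55 CPM (SD, n = 8), a 3.12-fold difference with a log2 fold change of 1.64 (SE 0.07, edgeR quasi-likelihood adjusted p = 9.93e-14). Within mice the log2 difference ran from 1.36 in mouse 2 to 2.0 in mouse 3.

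Il4ra, the chain that IL-4 and IL-13 receptors share (ENSMUSG00000030748, chr7:125552282-125579472, + strand), was at 45.0, 47.9 and 63.0 CPM in tdTom+ and at 23.6, 25.4 and 32.7 CPM in tdTom− libraries. The groups did not overlap, and the highest tdTom+ value was in mouse 1 and the highest tdTom− value in mouse 2. Its means were 51.0 ± 6.67 and 26.3 ± 3.06 CPM, 1.94-fold apart (log2 fold change 0.96, SE 0.08, edgeR adjusted p = 2.40e-09), and it was higher in tdTom+ cells of 8 of 8 mice.

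The remaining chains of the IL-4 and IL-13 system were at or near the limit of detection. Il2rg, the common gamma chain that completes the IL-4 receptor of lymphocytes, had at most 2 counts in a tdTom+ and 9 counts in a tdTom− library. Il13ra2, the decoy receptor for IL-13, had no count in any of the 16 libraries. Stat6, the transcription factor of the pathway, was lower in tdTom+ cells, at 77.6 ± 6.16 against 104 ± 4.40 CPM (log2 fold change -0.42, SE 0.05, edgeR adjusted p = 6.12e-07), while Jak1 was higher at 153 ± 13.6 against 115 ± 5.80 CPM (0.41, SE 0.06, edgeR adjusted p = 2.98e-06). The log2 fold change of Tyk2, a further kinase of these receptors, was 0.19 and did not pass (edgeR adjusted p = 0.0117), and it passed with mouse as a replicate block (adjusted p = 0.00119). Of 12 genes listed as responding to IL-4 and IL-13, 8 could be tested, 5 were higher and 3 lower, with a median log2 fold change of 2.78. Retnlb, a goblet cell peptide induced by worms, had a log2 fold change of 4.42 (SE 0.55) and Itln1, a lectin of goblet cells, one of 4.07 (SE 0.49). Clca1 and Fcgbp in this list are goblet markers as well. The 3 that were lower, Sprr2a1, Sprr2a2 and Sprr2a3, are near-identical copies of a gene for a cornified envelope protein, with log2 fold changes of -2.21, -2.21 and -2.18, and the share of reads of each copy is uncertain.

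Among the receptors built on IL-10Rβ, the private chains were lower in tdTom+ cells and the shared chain was not distinguishable. Il10rb (ENSMUSG00000022969, chr16:91406164-91425834, + strand) was at 40.6, 44.8 and 50.8 CPM in tdTom+ and at 40.6, 48.7 and 55.0 CPM in tdTom− libraries. These ranges largely coincided, with a lower value in tdTom+ cells of 6 of 8 mice. The log2 fold change was -0.10 (95% interval -0.23 to 0.03, edgeR adjusted p = 0.180). Of its 3808 exonic bases, 569 are shared with the gene model Gm21970, where featureCounts by default assigns no read, so its level is a low estimate.

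Il22ra1, the IL-22-binding chain (ENSMUSG00000037157, chr4:135728172-135752140, + strand), was at 13.6, 17.3 and 20.6 CPM in tdTom+ and at 19.4, 26.2 and 31.0 CPM in tdTom− libraries. The overlap came from the tdTom− library of mouse 4, which was the lowest of its group, and without it the tdTom− range began at 22.3 CPM. With all libraries the means were 17.1 ± 2.29 and 26.2 ± 4.07 CPM (log2 fold change -0.62, SE 0.10, edgeR adjusted p = 2.04e-05), lower in 8 of 8 mice. The difference varied more between mice than for the other receptors, from -1.01 in mouse 2 to -0.03 in mouse 4 on the log2 scale.

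Ifnlr1, the private chain for interferon lambda (ENSMUSG00000062157, chr4:135686287-135708181, + strand), had the lowest mean TPM of the 10 receptor genes in both populations, and stood at 8.85, 10.6 and 11.8 CPM in tdTom+ and at 12.2, 14.7 and 16.04 CPM in tdTom− libraries. Its groups did not overlap, and the closest libraries were the highest tdTom+ library and the tdTom− library of mouse 4. The means of 10.5 ± 0.912 and 14.4 ± 1.595 CPM gave a log2 fold change of -0.44 (SE 0.08, edgeR adjusted p = 6.80e-05). In mice 1 to 3 alone the value was -0.40 with an edgeR adjusted p of 0.040, and in mice 5 to 8 alone it was -0.51 with an adjusted p of 1.65e-04.

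Il10ra and Il22ra2, other chains of this family, were close to zero. Il10ra, which IL-10 needs, had at most 4 counts in a tdTom+ and 13 counts in a tdTom− library, and Il22ra2, the soluble decoy of IL-22, had none in tdTom+ and at most 14 in tdTom− libraries. Of 12 genes listed as IL-22 targets, 9 could be tested, of which 2 were higher and 6 lower, with a median log2 fold change of -0.80. The higher ones were Lrg1, a secreted glycoprotein (1.98 ± 0.517 against 0.260 ± 0.157 CPM), and Fut2, the fucosyltransferase of mucosal glycans (380 ± 58.6 against 98.7 ± 11.7 CPM). The lower ones were led by Saa1 and Saa2, neighbouring copies for serum amyloid A (log2 fold changes -3.33 and -3.31), and included Reg3b and Reg3g, antimicrobial lectins (-2.95 and -1.64). Of 15 interferon-lambda response genes, 14 were tested, 3 were higher and 9 lower, with a median of -1.15. Ifit3 and Ifit1, interferon-induced RNA-binding proteins, had log2 fold changes of -3.59 (SE 0.35) and -3.15 (SE 0.21), and Oas2 and Mx1, antiviral effectors, had 1.27 (SE 0.19) and 0.85 (SE 0.25). The call of Mx1 was lost when mouse 3, 4, 5, 6 or 7 or the tdTom− library of mouse 4 was left out, and in mice 1 to 3 alone none of the list was higher.

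The chains of the IL-1 and IL-17 receptors went in opposite directions. Il1r1, the signalling IL-1 receptor (ENSMUSG00000026072, chr1:40225080-40317257, + strand), was at 30.1, 35.6 and 43.4 CPM in tdTom+ and at 21.2, 24.0 and 31.7 CPM in tdTom− libraries. The tdTom− library of mouse 4 was the highest of its group and made the ranges overlap, and without it the tdTom− range ended at 29.1 CPM. The means were 35.4 ± 4.30 and 25.4 ± 3.84 CPM, with a log2 fold change of 0.47 (SE 0.09, edgeR adjusted p = 1.41e-04) and a higher value in tdTom+ cells of 8 of 8 mice. In mice 1 to 3 alone it was 0.43 (edgeR adjusted p = 0.030) and in mice 5 to 8 alone 0.59 (adjusted p = 1.88e-05). Its accessory chain Il1rap did not differ detectably, at 9.72 ± 0.944 against 9.56 ± 1.19 CPM (log2 fold change 0.02, 95% interval -0.16 to 0.20, edgeR adjusted p = 0.860).

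Il17ra, the common IL-17 chain (ENSMUSG00000002897, chr6:120463197-120483727, + strand), was at 14.9, 17.7 and 18.7 CPM in tdTom+ and at 20.1, 22.3 and 25.9 CPM in tdTom− libraries. The groups did not overlap, and the difference was the smallest of the receptors called. It had means of 17.2 ± 1.29 and 22.4 ± 2.12 CPM (log2 fold change -0.38, SE 0.07, edgeR adjusted p = 5.46e-05). In mice 1 to 3 alone the value of -0.44 had an adjusted p of 0.012. Il17rc, its partner for IL-17A and IL-17F (ENSMUSG00000030281, chr6:113471427-113483140, + strand), was at 61.6, 66.7 and 75.2 CPM in tdTom+ and at 82.2, 108 and 120 CPM in tdTom− libraries. No tdTom+ library reached the tdTom− range, whose lowest value was again mouse 4. The log2 fold change of Il17rc was -0.66 (SE 0.07, edgeR adjusted p = 3.30e-08).

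The other IL-17 chains were lower as well. Il17re, which pairs with IL-17RA to bind the epithelial cytokine IL-17C, was at 16.4 ± 2.53 against 22.1 ± 1.75 CPM (-0.43, edgeR adjusted p = 2.38e-04), Il17rd at 3.44 ± 0.719 against 7.50 ± 2.28 CPM (-1.14), and Il17rb, the IL-25 receptor that tuft cells carry, at 1.67 ± 0.362 against 4.33 ± 0.969 CPM (-1.36). Of the 24 adaptors and kinases listed for IL-1 and IL-17 receptors, 4 were higher and 7 lower, with a median log2 fold change of -0.02. Irak3, an inhibitory member of the IL-1 receptor kinases, was at 18.1, 20.7 and 24.6 CPM in tdTom+ and at 1.01, 1.90 and 3.01 CPM in tdTom− libraries, 11.1-fold apart (log2 fold change 3.48, SE 0.15, edgeR adjusted p = 6.25e-14). Irak2, an activating member, was at 12.2 ± 1.33 against 41.4 ± 6.29 CPM (-1.76). Traf3ip2, the Act1 adaptor of IL-17 receptors, was higher (49.5 ± 3.10 against 35.6 ± 2.12 CPM, log2 fold change 0.48), and Myd88, the adaptor of IL-1 receptors, did not pass (0.06, edgeR adjusted p = 0.442). Nfkbiz, a nuclear IκB protein induced by both cytokines, had a log2 fold change of -1.56. The count of 4 fell to 2 when mouse 1, 5, 6 or 7 was left out. Of 12 IL-17 response genes, 8 were tested, 0 were higher and 5 lower with edgeR (median log2 fold change -0.69), led by Duoxa2 (-1.92), a maturation factor of dual oxidase, and the chemokine Ccl20 (-1.64). At an unadjusted p under 0.05, 1 was higher, with DESeq2 0 were, and with mouse as a replicate block 1 was.

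Both chains of the interferon gamma receptor were lower in tdTom+ cells, Ifngr1 by the most among the 10 receptor genes. Ifngr1, the ligand-binding chain (ENSMUSG00000020009, chr10:19591949-19610229, + strand), was at 85.5, 90.3 and 105 CPM in tdTom+ and at 167, 221 and 246 CPM in tdTom− libraries. The populations were well apart, and mouse 4 had the lowest tdTom− value. Means of 92.8 ± 7.34 and 216 ± 28.2 CPM were 2.32-fold apart (log2 fold change -1.22, SE 0.08, edgeR adjusted p = 2.17e-11).

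Ifngr2, the signalling chain (ENSMUSG00000022965, chr16:91547072-91565169, + strand), was at 67.1, 73.1 and 80.0 CPM in tdTom+ and at 114, 122 and 160 CPM in tdTom− libraries. Again no value overlapped, and the log2 fold change was -0.81 (SE 0.07, edgeR adjusted p = 1.42e-09). Jak2, the kinase that Ifngr2 holds, was lower too, at 50.9 ± 4.34 against 67.6 ± 4.47 CPM (-0.41, edgeR adjusted p = 4.57e-06). Of 18 interferon gamma response genes, 16 were tested, 3 were higher and 3 lower, with a median log2 fold change of -0.03. Each direction thus held 18.8% of the list, against 25.5% of all genes tested. Cd274, the checkpoint ligand PD-L1, and Ciita, the regulator of class II genes, were lower (-1.54 and -1.58), and the call of Ciita was lost when any mouse but the third was left out. Ido1, which degrades tryptophan, was at 1.43, 4.86 and 88.4 CPM in tdTom+ and at 0, 0.161 and 4.06 CPM in tdTom− libraries, with both highest values in mouse 6 (log2 fold change 4.37, SE 0.97, edgeR adjusted p = 5.60e-04), and it did not pass in mice 5 to 8 alone. Gbp3, a guanylate-binding protein, had a log2 fold change of 1.09, and its call was lost without mouse 1, 3 or 5. With mouse as a replicate block 6 of the list were higher.

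**Figure D2:**
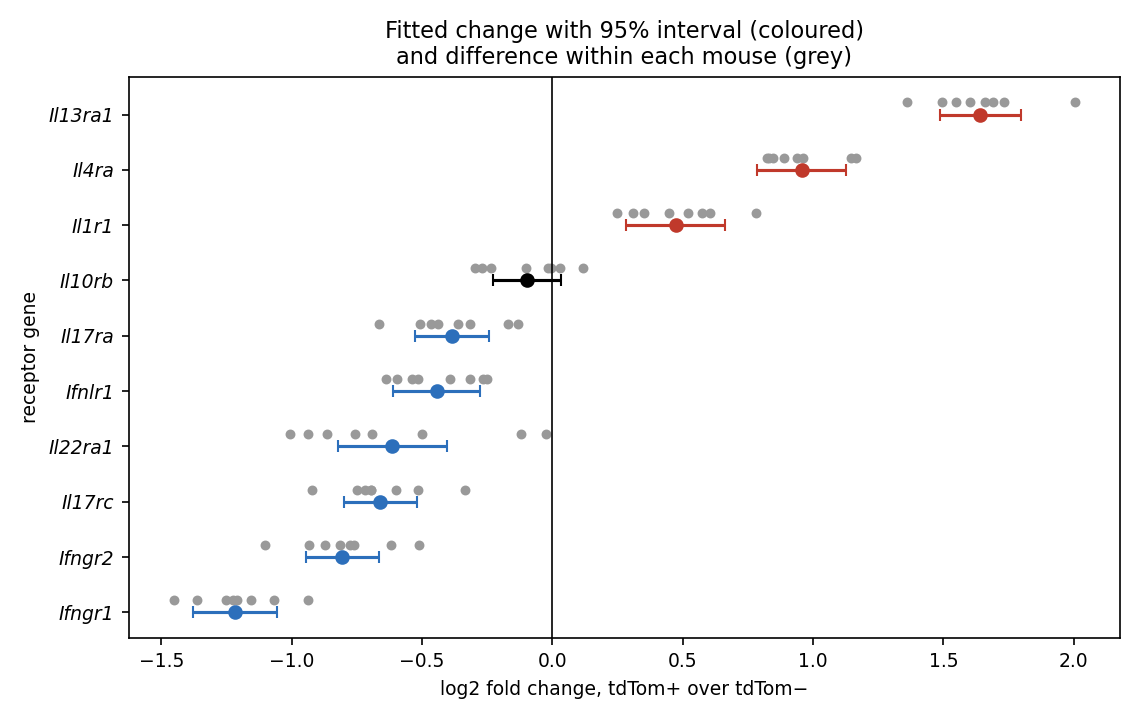
Log2 fold change of each receptor, tdTom+ over tdTom−, from the edgeR fit with its 95% interval (red higher, blue lower, black not called), and the difference within each of 8 mice (grey). Il13ra1 stands at 1.64 and Ifngr1 at -1.22, and Il10rb is the only interval that spans 0.

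The difference within mice was smallest in mouse 4 for 6 of the 9 receptors called (Il22ra1, Il1r1, Il17rc, Ifngr1, Ifngr2 and Ifnlr1), and for Il4ra it was largest there, at 1.16 on the log2 scale. In CPM, the tdTom− library of that mouse had the lowest value of its group for Il13ra1, Il10rb, Il22ra1, Ifnlr1, Il17ra, Il17rc, Ifngr1 and Ifngr2. These places depended on the scale, and this library had the largest TMM factor of all libraries. In TPM it was the lowest of its group only for Il17rc among these genes, and for Ifngr2 it was the highest. That library was also the deepest. It had the lowest summed absorptive markers of its group, 8482 CPM against 10377 to 15488 CPM in the others. Its summed stem and proliferation markers were the highest, 1149 CPM against 687 to 997 CPM. The part of scaling, depth and these markers in the smaller differences was not tested. Without that library the 9 receptors kept their direction and their call, Ifngr1 at -1.26 and Il13ra1 at 1.62. In mice 1 to 3 alone and in mice 5 to 8 alone each of the 10 kept its direction, with Il13ra1 at 1.70 and 1.6, Il4ra at 0.98 and 0.88, Ifngr1 at -1.19 and -1.30 and Ifngr2 at -0.90 and -0.81. Among the named signalling genes, Il17re, Ifnar1, Jak1, Stat2, Stat3, Irf9, Oas2 and Mx1 did not pass in mice 1 to 3 alone, and Jak3 and Gbp3 passed in neither series.

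The ratio of the chains of a receptor within a library, in reads per exonic base, shifted the same way in 7 or 8 of the 8 mice for each of 5 pairs. The ratio of Il4ra to Il13ra1 was 0.121 (median, range 0.0949 to 0.162) in tdTom+ and 0.206 (0.170 to 0.233) in tdTom− cells, so that Il13ra1 exceeded Il4ra more in tdTom+ cells of 8 of 8 mice. The ratio of Ifngr1 to Ifngr2 was 1.48 (1.26 to 1.64) in tdTom+ and 1.98 (1.70 to 2.22) in tdTom− cells, lower in 8 of 8 mice and without overlap. Il10rb to Il22ra1 was 1.73 (1.46 to 2.52) against 1.23 (1.08 to 1.46), higher in 8 of 8 mice, with the closest libraries nearly equal. Il10rb to Ifnlr1 was 4.47 (3.76 to 5.97) against 3.58 (3.05 to 4.50), higher in 7 of 8 mice, and Il17ra to Il17rc 0.179 (0.134 to 0.194) against 0.141 (0.124 to 0.169), higher in 8 of 8 mice with overlapping groups. These ratios need no scaling between libraries and were not tested. Those with Il10rb divide by all its exonic bases, shared ones included, so they are low estimates in both populations.

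**Figure D3:**
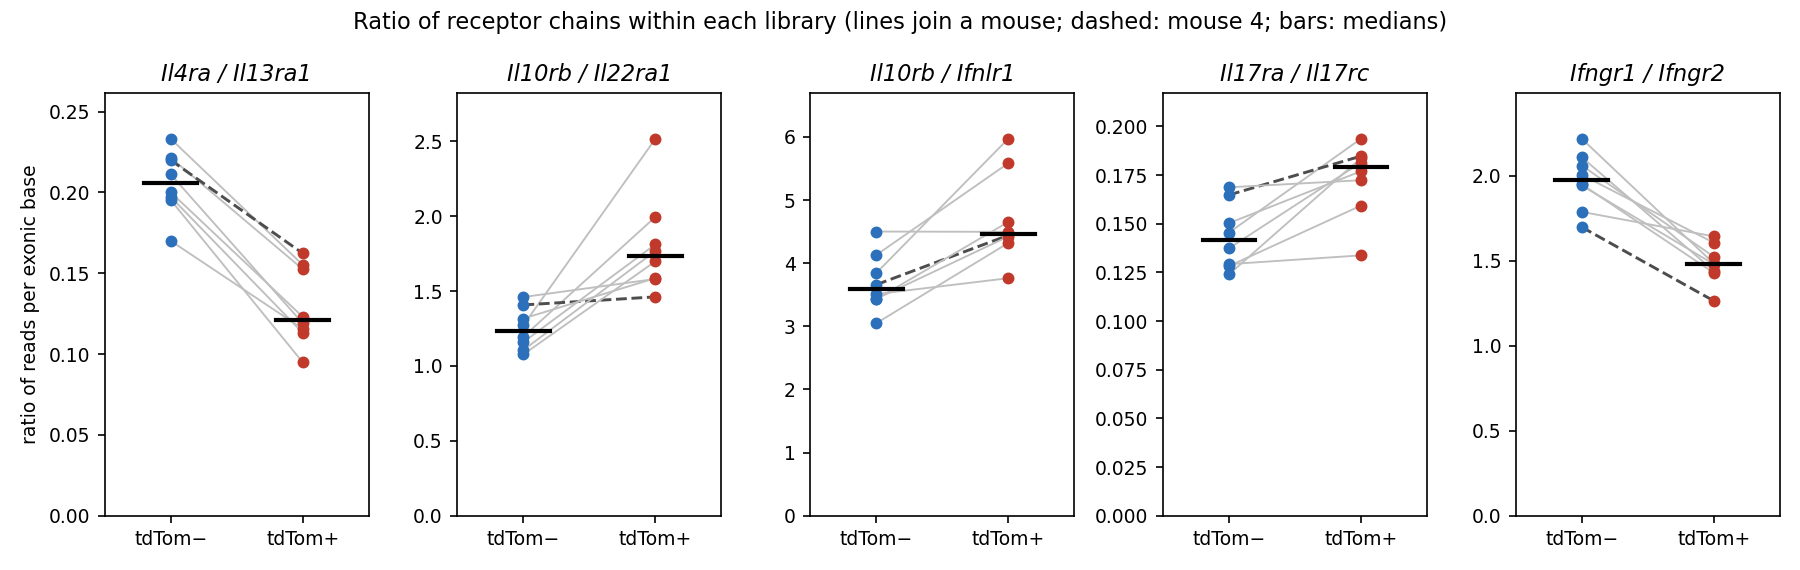
Ratio of reads per exonic base of receptor chains within each library, on axes from 0, for tdTom− (blue) and tdTom+ (red) cells; lines join a mouse, the dashed line is mouse 4 and bars are medians. The median of Il4ra to Il13ra1 is 0.206 in tdTom− and 0.121 in tdTom+ cells, that of Ifngr1 to Ifngr2 is 1.98 and 1.48, and those of Il10rb to its partners are higher in tdTom+ cells.

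Ordered by TPM, a level that allows for exon length, the receptors ranked differently in the populations. In tdTom− cells Ifngr1 led at 161 TPM, followed by Il17rc (84.3), Ifngr2 (81.7), Il13ra1 (53.6), Il10rb (26.8), Il22ra1 (21.7), Il17ra (12.1), Il4ra (11.0), Il1r1 (8.60) and Ifnlr1 (7.35), each the mean TPM of 8 libraries. In tdTom+ cells Il13ra1 came first at 159 TPM and was above 94.4% of all genes tested, followed by Ifngr1 (66.0), Il17rc (51.1), Ifngr2 (44.9), Il10rb (23.9), Il4ra (20.4), Il22ra1 (13.7), Il1r1 (11.4), Il17ra (8.81) and Ifnlr1 (5.14). Ranges of neighbours in this order were separate only between Il13ra1 and Ifngr1, Ifngr2 and Il10rb, and Il17ra and Ifnlr1, but within each of the 8 tdTom+ libraries every receptor was above the next one. In tdTom− cells they were separate between Ifngr1 and Il17rc, Ifngr2 and Il13ra1, Il13ra1 and Il10rb, and Il22ra1 and Il17ra. Within tdTom− libraries Il17rc was above Ifngr2 in 5 of 8, Il17ra above Il4ra in 7, Il4ra above Il1r1 in 7 and Il1r1 above Ifnlr1 in 4, and the remaining neighbours kept their order in 8 of 8. Counted on its unshared exonic bases, Il10rb came to 28.0 TPM in tdTom+ and 31.5 TPM in tdTom− cells, which leaves its place in both orders.

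**Figure D4:**
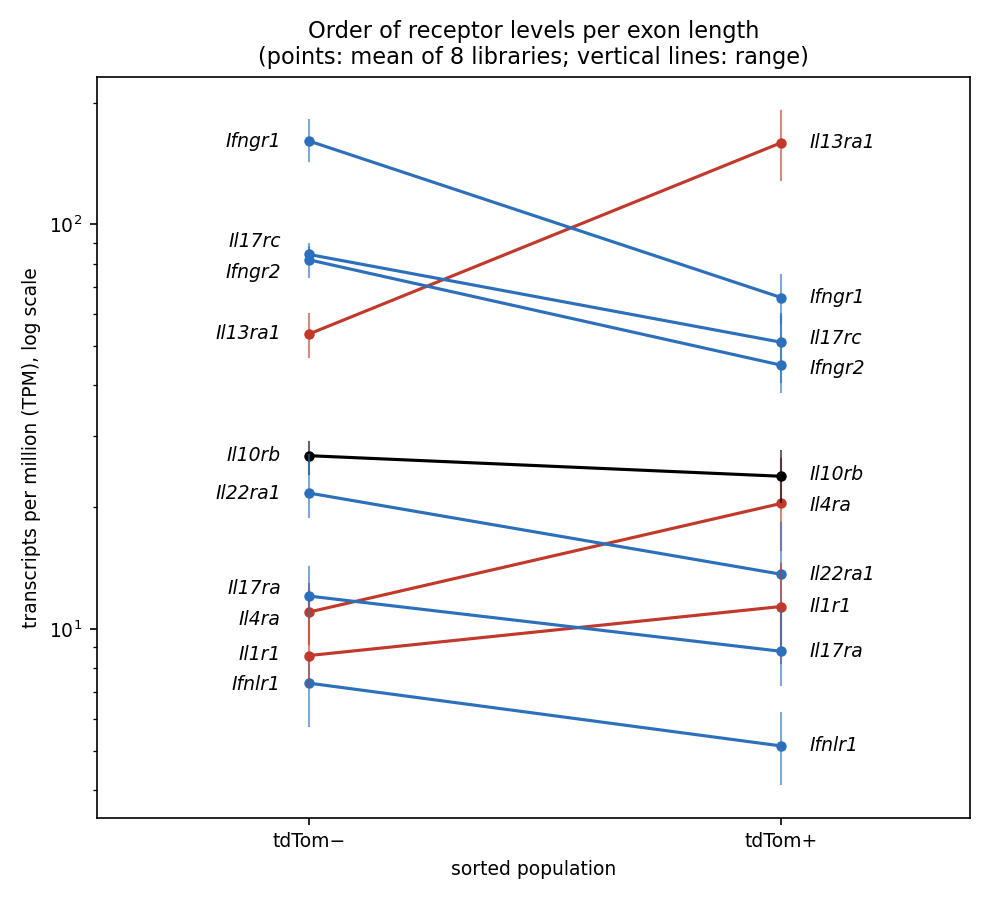
Mean TPM of each receptor on a log axis in tdTom− and tdTom+ cells, with vertical lines for the range over 8 libraries; red receptors were higher in tdTom+ cells, blue lower and black not called. Il13ra1 moves from the fourth place at 53.6 TPM to the first at 159 TPM, and Ifngr1 from 161 to 66.0 TPM.

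Some of these genes are neighbours on the chromosome. Ifnlr1 and Il22ra1 lie 19990 bases apart on chromosome 4 with 0 protein-coding genes between them, and both were lower in tdTom+ cells. Il10rb and Ifngr2 lie 121237 bases apart on chromosome 16, with Ifnar1 as the only protein-coding gene between them. Ifnar1, a chain of the type I interferon receptor, was lower (28.7 ± 2.34 against 36.9 ± 1.20 CPM, log2 fold change -0.36, edgeR adjusted p = 5.65e-06), its value lying between those of Il10rb and Ifngr2. The log2 fold change of Ifnar2, its partner chain, was 0.34 and did not pass (edgeR adjusted p = 0.033), and it passed with mouse as a replicate block (adjusted p = 0.00851).

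Genes of both directions were found in most lists of related signalling genes, as among all genes tested (25.5% higher and 25.5% lower). Of 11 partner and decoy chains 5 could be tested, of which 0 were higher and 3 lower with edgeR (Il17rb, Il17rd and Il17re), with a median log2 fold change of -0.43, and 0 were higher at an unadjusted p under 0.05 or with DESeq2 either. Of 30 other cytokine receptor chains 15 could be tested, with 7 higher and 3 lower and a median log2 fold change of 0.42. Il6ra, the IL-6 receptor, was at 18.6 ± 2.64 against 3.30 ± 0.948 CPM (log2 fold change 2.52, SE 0.16) and Il11ra1, the IL-11 receptor, at 16.5 ± 1.62 against 6.04 ± 1.13 CPM (1.45, SE 0.10). Lifr, the leukaemia inhibitory factor receptor (-1.29), and Crlf2, the receptor for thymic stromal lymphopoietin (-0.82), were lower. A list of JAK and STAT genes that also held the adaptors Irs1 and Irs2 and the STAT partner Irf9 had 13 tested members, of which 4 were higher and 4 lower (median -0.04). The JAK and STAT genes among them that were higher were Jak1, Stat2 (0.42) and Stat3, the factor downstream of IL-22 and IL-6 (0.33, edgeR adjusted p = 4.33e-04), and those that were lower were Jak2, Jak3 (-0.42) and Stat6. Of the associated genes Irs1 was higher (0.96) and Irf9 lower (-0.48). Of 17 inhibitors of this signalling 4 were higher and 4 lower (median -0.01), led by Socs5 (1.10) and Socs2 (0.51) and by Cish (-0.96) and Ptpn6 (-0.49). Both lists were near the shares of all genes, at 30.8% each way for the JAK and STAT list and 23.5% for the inhibitors.

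The ligands themselves were almost undetected in the sorted cells. Il4, Il13, Il22 and Ifng had no count in any of the 16 libraries, and of 14 ligand genes found among the counts only Il1rn passed the filter. Il1rn, the antagonist that blocks IL-1R1, was at 10.8, 13.4 and 17.5 CPM in tdTom+ and at 36.8, 49.8 and 62.1 CPM in tdTom− libraries. The antagonist was thus lower without overlap where its receptor was higher (log2 fold change -1.84, SE 0.12, edgeR adjusted p = 2.27e-11).

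**Figure D5:**
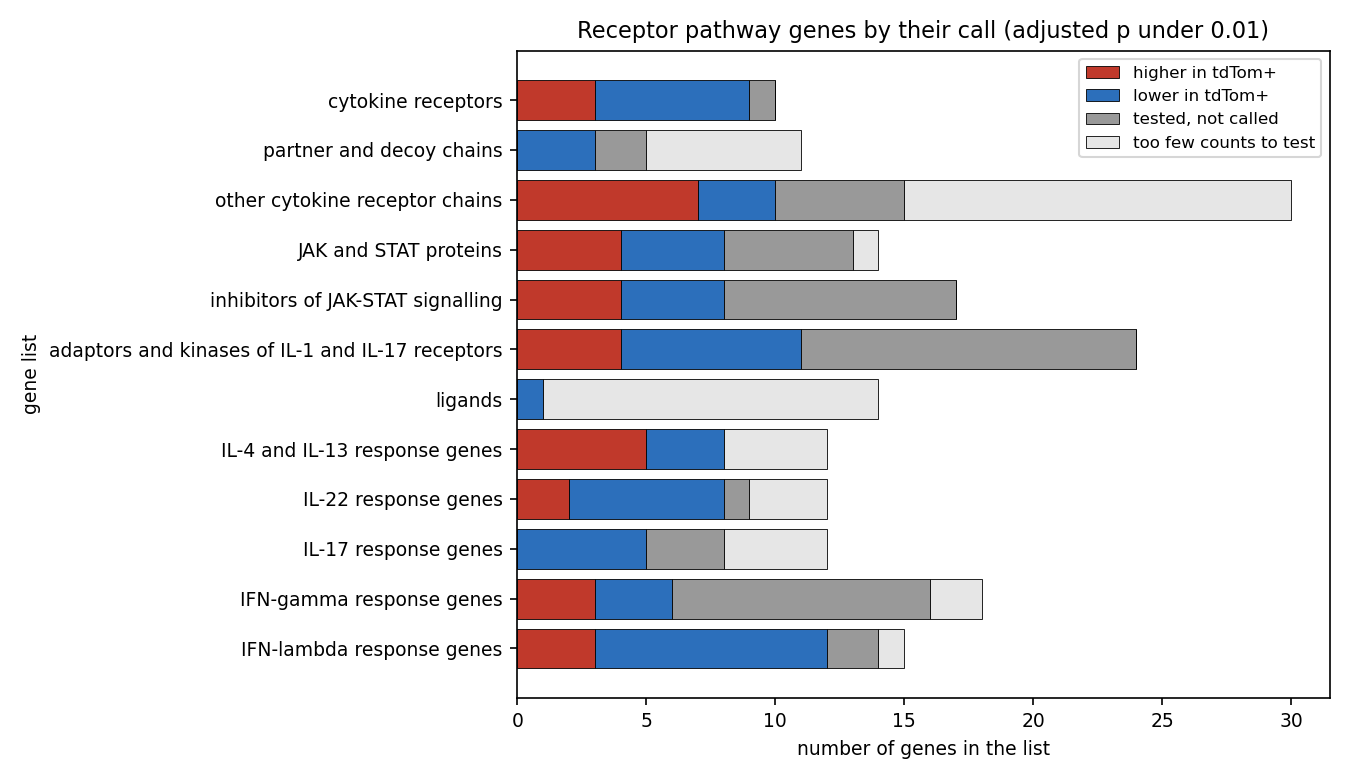
Number of genes in each list that were higher (red), lower (blue), tested but not called (dark grey) or too weakly counted to test (light grey) in tdTom+ against tdTom− cells; the JAK and STAT list includes Irs1, Irs2 and Irf9. The receptors show 3 higher and 6 lower, the partner and decoy chains 0 and 3, the other receptor chains 7 and 3, and 13 of 14 ligands could not be tested.

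The genes whose log2 CPM followed a receptor most closely over the 16 libraries were, for Il13ra1, Liph (Pearson r = 0.994), Rassf6 (0.992) and Lrrc26 (0.990), and, for Ifngr1, Myl12b (0.993), Fbxo25 (0.993) and Slc25a20 (0.992). Il4ra was closest to Tmem184a (0.985), Il22ra1 to Gm8464 (0.961), Ifnlr1 to Rhbdl2 (0.948), Il1r1 to Kdm5b (0.970), Il17ra to Ephx2 (0.945), Il17rc to Plekha3 (0.983) and Ifngr2 to Chp1 (0.987). For Il10rb, which did not separate the populations, the closest gene was Lmbrd1 at 0.914 and the next was Mast1 at 0.823. The libraries share the difference between the populations, which alone yields high values for genes that differ, and these correlations are a description.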

How the data were processed

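Colon epithelial cells of 8 mice were sorted into tdTom+ and tdTom− populations and sequenced as single-end 50 bp reads of stranded mRNA libraries. The authors aligned the reads to GRCm38 with TopHat2 (2.1.1 in the submitters' processing notes) and deposited raw counts per gene, made by featureCounts (v1.5.0-p1 per the file headers, Subread 1.5.2 in the notes) on exons of the reverse strand, so reads of opposite-strand genes were kept apart. Groups and mouse numbers came from the labels. Symbols from GENCODE M21 matched 44585 of 45513 genes. Total counts ranged from 16482530 to 45791503, which limits precision for genes near 0 counts. No pair of libraries within a group agreed within sampling noise.

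The test was the quasi-likelihood test of edgeR 4.0.16 under R 4.3.3 without a mouse term, on 15841 genes kept by filterByExpr and scaled by TMM, called at a Benjamini-Hochberg adjusted p of 0.01. Log2 CPM used a prior count of 2, chain ratios 0.5 added counts. Both libraries of a number come from 1 mouse, and their deviations correlated in every pair (0.223 to 0.408), so the mouse was tried as a replicate block, beside other normalizations, filters, thresholds, DESeq2 1.42.0, each mouse left out, and mice 1 to 3 or 5 to 8 only (the title series, a possible batch, with mouse 4 alone). The block within series, the fit without the tdTom− library of mouse 4 and the unshared exon length of Il10rb were chosen after seeing the data. Scripts were tested on simulated data. Named were all 10 receptors, Atoh1, fixed partner and signalling genes, and the 2 largest changes past the threshold in each direction of every list, plus the 3 genes most like each receptor. Reg3b, Reg3g, Sprr2a3, Cd3e, Cd4, Itgae, Itgam, Lyz2, Clca1, Fcgbp and the ligands at 0 counts fall outside that rule and were chosen after their values were seen. Members and lists were chosen with earlier results of these data known. Summaries used Python 3.11.15, numpy 2.4.6, pandas 2.3.3 and matplotlib 3.10.9. 1 gene of the fixed signalling genes is not reported here. Other tissues and genotypes are not analysed here.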

Additional observations from a re-analysis of the deposited data

Results flagged for a closer look

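In 13 of 160 groups of 8 libraries, where chance gives about 1 in 20, 1 library stood far from the others on the log2 CPM scale by Dixon's criterion. None of the 20 groups of the receptors was among them, and 5 of the 13 were in mouse 4. In the tdTom− library of mouse 4, Jak2 was low (5.85 against 6.06 to 6.19 log2 CPM in the other 7), as were the absorptive markers Aqp8 (8.33 against 9.21 to 9.48) and Car4 (9.56 against 10.02 to 10.44) and the near-identical Sprr2a1 (11.45 against 12.39 to 12.78) and Sprr2a2 (11.45 against 12.39 to 12.78).

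Among the other tdTom− libraries, the insulin receptor substrate Irs1 was high in mouse 5 (3.01 against 1.94 to 2.33), Stat2 in mouse 6 (5.28 against 4.86 to 5.05), Socs5 in mouse 7 (3.88 against 3.39 to 3.59), Cish in mouse 2 (4.46 against 3.98 to 4.21) and Mx1 in mouse 1 (2.95 against 1.56 to 2.13). Among the tdTom+ libraries, Ifnar1 was high in mouse 1 (5.09 against 4.71 to 4.86), the keratin Krt18 in mouse 2 (9.84 against 9.52 to 9.67) and Ido1 in mouse 6 (6.47 against 0.61 to 3.13).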

How the results depend on the processing

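The 10 receptors kept their direction in all 210 alternative values, and 206 kept their side of the threshold. The 4 exceptions were Il1r1, Il17ra and Ifnlr1 in mice 1 to 3 alone, where fewer samples were fitted, and Ifnlr1 there with the mouse as a replicate block (-0.41, edgeR adjusted p = 0.023). The replicate block left the receptors at 3 higher and 6 lower and gave 4494 genes higher and 4574 lower over all genes, against 4032 and 4042. It changed no call among the named genes other than Ifnar2 and Tyk2.

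Mice 1 to 3 alone gave 2546 genes higher and 2559 lower, 1 gene of the JAK and STAT list higher and 2 lower, 2 inhibitors higher and 2 lower, 2 adaptors higher and 0 interferon-lambda response genes higher. With the replicate block in these mice, 2 genes of the JAK and STAT list, 2 adaptors and 0 interferon-lambda response genes were higher. Mice 5 to 8 alone gave 1 interferon gamma response gene higher, and 1 IL-17 response gene higher with the replicate block. Over all mice the replicate block gave 1 IL-17 and 6 interferon gamma response genes higher. Without a filter, 5 other receptor chains were lower, and 1 ligand was higher and 2 lower. DESeq2 gave 7 other receptor chains and 2 ligands lower. With at least 10 counts in every sample, 1 IL-22 and 1 interferon gamma response gene were higher. Scaling by total counts gave 2 adaptors higher, and a threshold of 0.05 gave 1 IL-17 response gene higher. Leaving out 1 mouse moved the adaptors between 2 and 4 higher. Of 591 counts and ratios under alternatives, 563 stayed within 1.5 times or 1 SD of the reported value. None of the ratios reversed, and a count has no sign to reverse. Causes were not tested. Depth limits the genes with few counts, such as Il2rg and Il10ra.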

Other observations

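The tdTom− library of mouse 4 had a different make-up by several marker lists. Its summed goblet markers came to 2229 CPM against 2271 to 8663 CPM in the other 7 tdTom− libraries, its enteroendocrine markers to 1374 CPM against 1735 to 4024 CPM and its tuft markers to 91.5 CPM against 129 to 156 CPM, while its general epithelial markers, at 8826 CPM, lay within the range of the others.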
